A study of Mus musculus with 18 samples.

Results

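The region described here is a stretch of 200 kb on mouse chromosome 17, from 34270001 to 34470000 in build NCBIM37, within the major histocompatibility complex (MHC). By the definition of the region it holds the genes Psmb8, Psmb9, Tap1 and Tap2 and the class II genes H2-Ab1, H2-Aa and H2-Eb1. Its members are all peaks of 8 histone peak lists that overlap this stretch, 120 of 225177 peaks in all. The stretch was selected on earlier results of the same lists, among them a strong H3K27me3 peak present in GFP cells alone, so that its values are a description. No difference between the conditions was tested, because each mark had 1 library per condition.

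The study used mouse embryonic fibroblasts of a mixed B6;129 background that carry a conditional allele of Rb, the retinoblastoma tumour suppressor. GFP cells were infected with Adeno-GFP as the control, and Cre cells with Adeno-Cre to delete Rb, so both had been through an adenoviral infection. Neither received 4F, a construct given to other cells of the series, and both were then expanded for up to 3 passages. Chromatin was immunoprecipitated for acetylated H3 (H3Ac), H3K4me3, H3K27me3 and H3K9me3. The residual amount of Rb in Cre cells was not analysed here, nor were fibroblast markers, since no annotation of build NCBIM37 was used. The peak lists give no read depth. In bulk chromatin, fewer cells with a mark and less of the mark per cell cannot be told apart.

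H3K4me3 and H3Ac are found at active promoters, H3K27me3 is laid down by Polycomb complexes over silent genes, and H3K9me3 is typical of heterochromatin. Psmb8 and Psmb9 encode catalytic subunits of the immunoproteasome, which cuts proteins into peptides. Tap1 and Tap2 form the transporter that carries these peptides into the endoplasmic reticulum for loading on MHC class I molecules. H2-Ab1, H2-Aa and H2-Eb1 encode chains of MHC class II molecules, which professional antigen-presenting cells display and resting fibroblasts largely lack. Both sets are known targets of interferon-gamma, the class II genes through the coactivator CIITA.

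In assembly GRCm38.p6 the RefSeq gene table gives the order Brd2, H2-DMa, H2-DMb2, H2-DMb1, Psmb9, Tap1, Psmb8, Tap2, H2-Ob, Gm20506, H2-Ab1, H2-Aa, H2-Eb1 and H2-Eb2. The peptide-processing genes thus follow each other directly and lie between class II genes on both sides. Coordinates were not carried from that assembly to NCBIM37, and no peak was assigned to a single gene.

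Promoter stretches of both gene sets are shown because these genes define the interval. Which peak lies on which of these promoters was not determined. RefSeq promoter sequences (GRCm38.p6) matched 5 of the 7 genes. Psmb9 and Tap1 start on opposite strands, 225 bases apart, and their shared stretch is read on the Tap1 strand. The others are the 250 bases before the start, on the strand of the gene. Capitals mark matches, on either strand, to 5 motifs: the E2F motif (TTTCCCGC, TTTCGCGC, TTTGCCGC or TTTGGCGC), the GC box GGGCGG, the class II Y box CTGATTGG, the X2 box TGACGTCA and the interferon-stimulated response element GAAANNGAAA.
Psmb9-Tap1: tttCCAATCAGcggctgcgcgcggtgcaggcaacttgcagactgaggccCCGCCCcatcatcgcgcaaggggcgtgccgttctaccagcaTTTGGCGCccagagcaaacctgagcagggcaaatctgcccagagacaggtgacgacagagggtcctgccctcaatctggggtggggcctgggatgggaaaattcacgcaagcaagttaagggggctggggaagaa
Psmb8: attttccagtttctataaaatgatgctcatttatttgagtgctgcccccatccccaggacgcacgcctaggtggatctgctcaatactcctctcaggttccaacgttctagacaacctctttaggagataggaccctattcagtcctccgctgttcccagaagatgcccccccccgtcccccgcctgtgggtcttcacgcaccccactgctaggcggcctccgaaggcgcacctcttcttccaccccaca
H2-Aa: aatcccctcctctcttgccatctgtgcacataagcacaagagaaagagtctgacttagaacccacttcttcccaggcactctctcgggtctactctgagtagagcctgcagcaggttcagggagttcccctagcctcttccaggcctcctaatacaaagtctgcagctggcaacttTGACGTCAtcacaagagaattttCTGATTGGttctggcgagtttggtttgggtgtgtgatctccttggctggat
H2-Eb1: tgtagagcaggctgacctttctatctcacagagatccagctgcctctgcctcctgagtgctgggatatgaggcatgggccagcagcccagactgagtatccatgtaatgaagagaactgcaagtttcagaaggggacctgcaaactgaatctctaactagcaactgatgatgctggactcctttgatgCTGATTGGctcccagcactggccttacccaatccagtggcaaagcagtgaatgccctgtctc

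The stretch between Psmb9 and Tap1 held 1 match to the E2F motif, the sequence bound by the transcription factors that Rb is known to hold in check, at bases 91 to 98 of those printed. Of the 32851 starts in the table, 1.86% had such a match within 250 bases before the start. It also held a GC box, found before 32.7% of starts, and a Y box, found before 3.83%. H2-Aa had a Y box and an X2 box (1.55% of starts) and H2-Eb1 a Y box. The Psmb8 stretch held no match to the 5 motifs, and none of the printed stretches had the response element, found before 2.98% of starts. A match describes the letters and is not a binding site.

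The 3 shared regions with the largest rank differences in H3Ac, and likewise in H3K4me3, lay side by side between 34322431 and 34343896, a span of 21.5 kb that was set after the values were seen. In this span the bases under H3Ac peaks were 5.04 kb in the GFP and 11.5 kb in the Cre list, and those under H3K4me3 peaks 6.63 and 9.23 kb. In the rest of the interval H3Ac covered 5.47 and 6.42 kb, and H3K4me3 9.19 and 8.66 kb. Most of the additional acetylation and all of the net additional H3K4me3 in Cre cells lay in this span. Picking the span by its differences in H3Ac rank favours such a result. Peaks of H3K27me3 covered 1.55 kb of it in GFP and 1.24 kb in Cre cells.

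**Figure D1:**
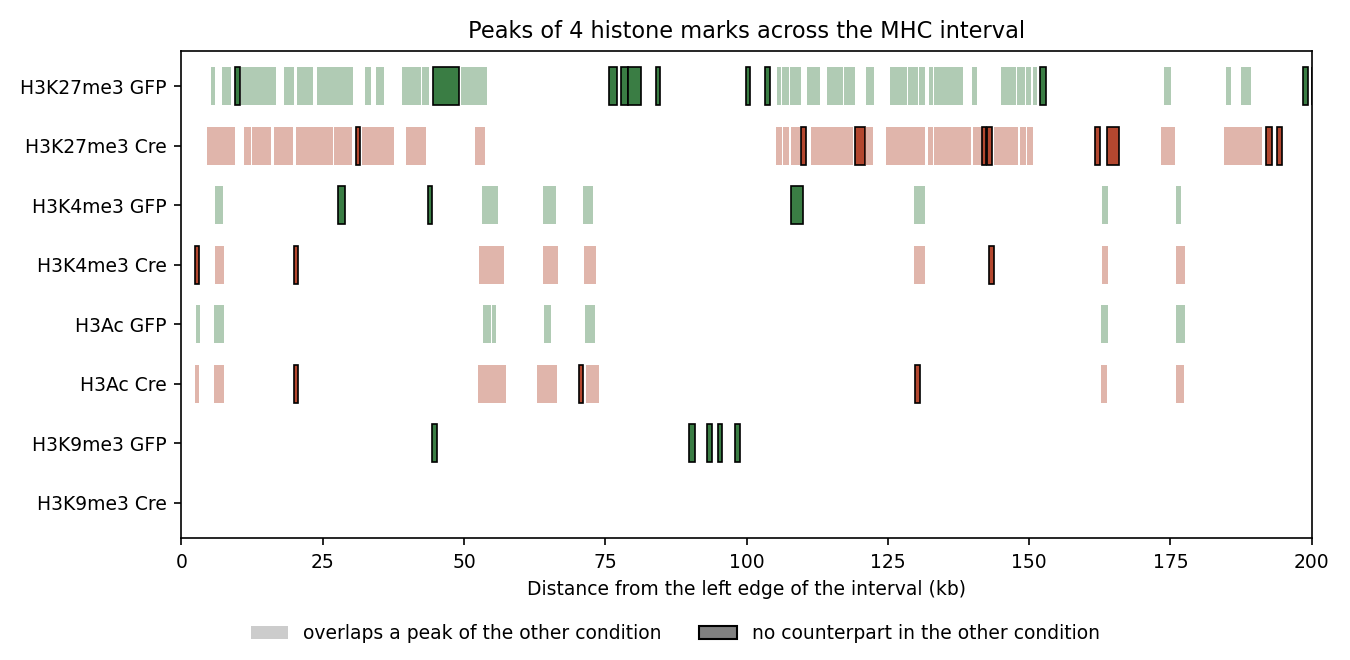
Peaks of the 8 lists across the interval, 1 row per mark and condition (green, GFP; red, Cre). The x axis is the distance from the left edge in kb, pale bars overlap a peak of the other condition and dark outlined bars have no counterpart; the H3Ac bars between 50 and 75 kb are wider in the Cre row, while the Cre row of H3K27me3 is empty over 51.5 kb.

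Peak scores are the authors' own numbers and depend on depth and control, so they were compared between conditions as percentiles among all autosomal regions with a peak in both lists, 33117 for H3Ac and 18678 for H3K4me3. In the first region, from 34322431 to 34327419, the GFP list held 2 H3Ac peaks with scores of 373 and 150 and the Cre list 1 peak of 4989 bases with a score of 2677. Its percentile was 47.3 in GFP and 90.6 in Cre, a difference of 43.2 points, and the covered bases were 2.37 times as many. Only 0.459% of all shared H3Ac regions were higher in Cre by as much in rank, and 0.423% by as much in covered bases.

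The second region, from 34332983 to 34336461, had H3Ac scores of 282 in GFP and 1724 in Cre, and percentiles of 39.6 and 82.7. Its H3Ac bases were 1.16 and 3.48 kb, a ratio of 3.00 that 0.127% of all shared regions reached. The third, from 34341438 to 34343896, had scores of 242 and 727, percentiles of 35.5 and 66.4, and covered bases of 1.78 and 2.33 kb. That ratio of 1.31 in covered bases was reached by 9.21% of all shared regions. All 3 regions were thus higher and wider in the Cre list.

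The 4 other shared H3Ac regions showed no such pattern. From 34275737 to 34277605 the scores were 649 in GFP and 500 in Cre, and the percentiles 61.1 and 59.0. From 34445959 to 34447500 the region was lower in Cre, with scores of 218 and 95.4 and percentiles of 32.5 and 14.5. The last pair, at 34272483 and 34432639, differed by 4.74 and 2.63 points. In total 3 of 7 shared H3Ac regions were higher in Cre by at least 20 points, against 7.65% of all autosomal ones, and 2 of 7 had at least 1.5 times the covered bases, against 4.32%. Over all shared regions the median difference in rank was 1.08 points, and that of the 7 was 4.74.

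H3K4me3 differed at the same 3 places. In the region from 34322606 to 34327012 its score was 1818 in GFP and 3100 in Cre, and its covered bases 2.79 and 4.41 kb. In the region from 34333958 to 34336590 the scores were 1437 and 3100. Its covered bases were 2.21 and 2.63 kb, a ratio of 1.19 that 27.3% of all shared regions reached, against 5.32% for the ratio of the first. Many peaks are tied at 3100, a score that 5794 Cre and 4417 GFP regions reached or passed, so that the Cre percentile of these 2 regions is coarse. In the region from 34341128 to 34343350 the scores were 227 and 1072, and the percentiles 25.8 and 45.6. Its covered bases were 1.62 and 2.19 kb, a ratio that 13.2% of all shared regions reached.

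The rank differences of these 3 regions were 20.1, 25.2 and 19.8 points, where the median over all shared H3K4me3 regions was -2.78. At the limit of 20 points, 2 of 7 regions of the interval were higher in Cre, against 3.42% of all; the third missed it narrowly, and with all chromosomes ranked only 1 passed. At least 1.5 times the covered bases in Cre was found in 2 of 7, against 7.1% of all. One of these 2 lay outside the span, from 34446029 to 34447513, with 0.862 kb in GFP and 1.48 kb in Cre cells, and scores of 144 and 329. The H3K4me3 regions at 34275858, 34399612 and 34432815 differed by -9.32, 0.75 and -0.97 points.

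**Figure D2:**
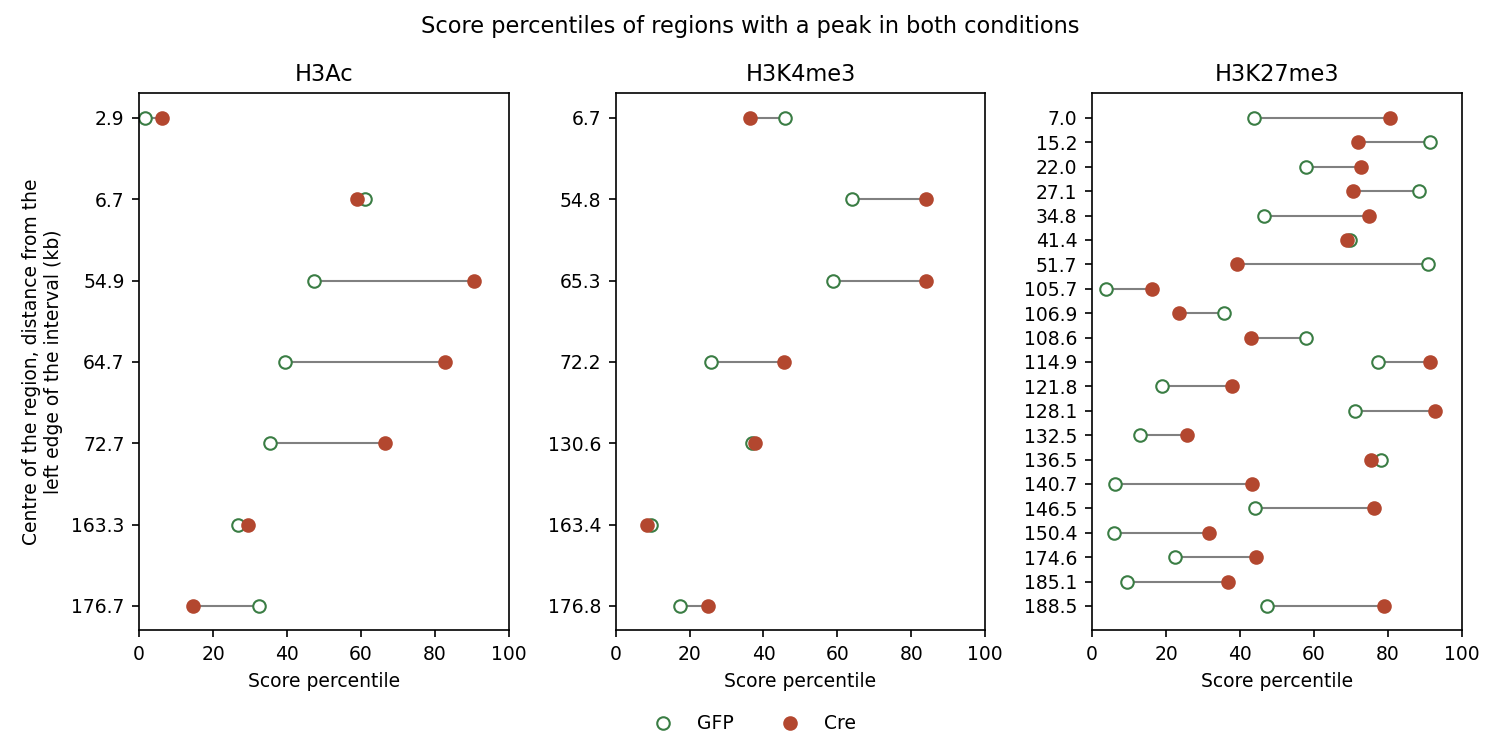
Score percentile of each region with a peak in both conditions (open circle, GFP; filled circle, Cre), by the distance of its centre from the left edge in kb. The 3 H3Ac regions between 50 and 75 kb, and the H3K4me3 regions beside them, lie further right in Cre, and 1 H3K27me3 region just beyond 50 kb lies far to the left, at 39.1 against 90.8.

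Most active-mark peaks had a counterpart in the other condition. For H3Ac, 0 of 8 GFP peaks lacked one (exact 95% interval up to 36.9%, for counting error only), against 26.8% of autosomal GFP peaks. Of the Cre peaks 3 of 10 lacked one, against 15.4%. The 3 Cre-only H3Ac peaks were weak, with scores of 56.2, 64.1 and 69.2 at starts of 34340384, 34289830 and 34399858. The interval's H3Ac bases were 10.5 kb in GFP and 17.9 kb in Cre, a ratio of 1.70, where the 200 kb before it had 41.4 and 41.2 kb and the median autosomal window of 200 kb a ratio of 0.858. Of all 8171 autosomal windows with H3Ac in either list, 9.62% had at least 1.5 times as many bases in Cre. That share counts windows with none in GFP, which the median of 0.858, over 7818 windows, leaves out. With peaks of a score of at least 100 alone, the difference was 3627 in place of 7379 bases.

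For H3K4me3, 3 of 10 GFP peaks and 3 of 10 Cre peaks had no counterpart, against 10.6% and 12.6% of the autosomal lists; the exact 95% interval of 3 in 10, 6.67% to 65.3%, covers counting error only and holds both. The Cre-only peaks, at 34272339, 34412847 and 34289902, scored 92.8, 92.8 and 101. One of them, from 34289902 to 34290670, lay over a Cre-only H3Ac peak from 34289830 to 34290662. The strongest GFP-only H3K4me3 peak, from 34377875 to 34380006, had a score of 335 and no H3Ac, and 1704 of its 2132 bases lay under GFP H3K27me3. Of the 13435 autosomal GFP peaks with at least this score, 32 (0.238%) had no Cre counterpart. Cre H3K27me3 peaks covered 1836 bases of the same stretch. In all, H3K4me3 covered 15.8 kb of the interval in GFP and 17.9 kb in Cre, and with 25 kb left out on each side the difference turned from 2072 to -310 bases. The 2 other GFP-only H3K4me3 peaks, at 34297630 and 34313679, scored 120 and 56.0.

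H3K27me3 covered similar lengths of the interval in both lists, and most of the covered bases were shared. The GFP list held 43 peaks over 81.0 kb, 40.5% of the interval, and the Cre list 34 peaks over 87.4 kb, 43.7%. Of these bases 57.5 kb were shared, 23.6 kb were found in GFP only and 30.0 kb in Cre only. The ratio of 1.08 compares with 0.924 over the autosomes. With the interval shortened by 25 kb on each side, the difference turned from 6417 to -1338 bases, and with a score of at least 100 required it was 15236 bases. The share of GFP bases that also lay under Cre peaks was 70.9% in the interval and 70.0% over the autosomes, and the reverse share was 65.7% and 75.7%.

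GFP cells carried H3K27me3 up to and into the first active region, where the Cre list held 1 peak. The GFP-only peak from 34314521 to 34319108, of 4588 bases, had a score of 715. Directly beside it a GFP peak between 34319405 and 34323981 scored 1055, whereas the Cre peak at that place, between 34321974 and 34323672, scored 169. The percentile of that region was 90.8 in GFP and 39.1 in Cre, and its covered bases 4.58 and 1.70 kb. A rank lower by as much in Cre was found in 0.905% of the 19332 autosomal H3K27me3 regions with a peak in both lists. That share takes no account of how the region came to be picked. The region lies beside the GFP-only peak that helped to choose the interval. It also has a high GFP score, and picking by a high score in 1 list favours a lower rank in the other. The Cre peak of this region overlapped the active marks: 1242 of its bases were covered by Cre H3Ac and 1067 by Cre H3K4me3. The GFP peak there did so too, with 616 bases under GFP H3Ac and 821 under GFP H3K4me3.

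From 34323673 to 34375149 the Cre list held no H3K27me3 peak, a stretch of 51.5 kb that holds the active regions, apart from the start of the first one. It was picked as the longest Cre stretch of the interval without a peak, and the share of such stretches elsewhere was not computed. In GFP cells 7 peaks reached into it and covered 7.57 kb. The longest GFP stretch without a peak, from 34323982 to 34345670, was 21.7 kb long, and another, from 34354679 to 34369850, was 15.2 kb long. Beyond the active regions the GFP list held a group of 4 peaks, from 34345671 to 34354678, with scores of 112, 106, 329 and 63.4. None of these had a Cre counterpart, nor did the peaks at 34369851 and 34373218, with scores of 64.0 and 73.0. Of autosomal GFP peaks scoring at least 63.4, 25.5% lacked a Cre counterpart, and of those scoring at least 329, 1.02%.

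H3K27me3 peaks without a counterpart were common in the whole lists. Of the 43 GFP peaks in the interval 11 were GFP-only (25.6%, exact 95% interval 13.5% to 41.2%), against 31.7% of autosomal GFP peaks, and of the 34 Cre peaks 9 were Cre-only (26.5%, 12.9% to 44.4%), against 22.7%. Both counts lie near the background. The intervals cover counting error only and treat neighbouring peaks of 1 library as independent, which peaks of the same stretch need not be. Among GFP peaks with a score of at least 500, 1 of 6 in the interval was GFP-only, the one at 34314521, which helped to choose the interval; over the autosomes this was 0.192%. The remaining GFP-only peaks started at 34279492, 34421872, 34468387 and 34469965 and scored 76.0, 89.2, 61.4 and 86.5. The strongest Cre-only peak lay from 34389226 to 34390972 with a score of 216. It was followed by those at 34461819 and 34433785, with scores of 134 and 124. The other 6, at 34300916, 34379710, 34411696, 34412531, 34431647 and 34463914, scored 58.7 to 71.4. Apart from the 2 GFP-only peaks at 34314521 and 34349096, peaks without a counterpart scored 216 or less. With a score of at least 100 required in both lists there were 4 GFP-only and 9 Cre-only peaks. With peaks merged within 1000 bases there were 5 and 2. Both settings also change how many peaks the interval holds, and the autosomal shares under them were not computed. These counts therefore have no background to be read against.

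Of the shared H3K27me3 regions that end before the active regions, the 2 with the highest GFP scores ranked lower in Cre. The 2 with the highest Cre scores, at 34274498 and 34301860, ranked higher in Cre. Picking regions by a high score in 1 list favours a lower rank in the other, so these pairs do not show a loss or gain. From 34280523 to 34289931 the highest score was 1104 in GFP and 476 in Cre, a difference of -19.41 points, and from 34293799 to 34300402 it was 918 and 452, a difference of -17.8 points. Their covered bases were nearly equal, at 8.11 and 7.92 kb and at 6.29 and 6.40 kb. Between and after them, the regions at 34290355, 34301860 and 34309065 differed by 14.8, 28.5 and -0.80 points.

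Beyond 34380000 the bases under H3K27me3 peaks were more in the Cre list in most places. From 34380649 to 34389093 the highest score was 549 in GFP and 1266 in Cre, over 7.20 and 7.44 kb. From 34394627 to 34401608 it was 430 and 1395, with percentiles of 71.0 and 92.8. Each of these 2 regions held 3 GFP peaks and 1 Cre peak. A region is ranked by its highest single peak, so its rank can differ with how the stretch is split into peaks. How much of the rank differences this makes was not tested. Of the regions between these and the far end, those at 34391004, 34402074, 34409859, 34413705, 34419436, 34443332 and 34454472 ranked higher in Cre by 12.53 to 37.0 points, and the one at 34403161 differed by -2.73 points. Just before 34380000, the regions at 34375150, 34376243 and 34377667 differed by 12.3, -12.13 and -14.65 points. From 34455951 to 34461129 the covered bases were 1.75 kb in GFP and 5.18 kb in Cre, a ratio of 2.95 that 0.626% of all shared regions reached. The first region of the interval, from 34274498 to 34279409, had 2.34 and 4.91 kb, and percentiles of 43.8 and 80.6.

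In total 9 of 21 shared H3K27me3 regions were higher in Cre by at least 20 points, against 13.6% of autosomal regions, and 1 was lower by as much, against 13.5%. With peaks merged within 1000 bases the first count was 2. Merging also changes the number of shared regions, and the autosomal share was not recomputed, so this is not 2 of 21. At least 1.5 times the covered bases in Cre was found in 7 of 21, against 11.1%. The median difference of the 21 was 14.8 points, and that of all regions 0.14.

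**Figure D3:**
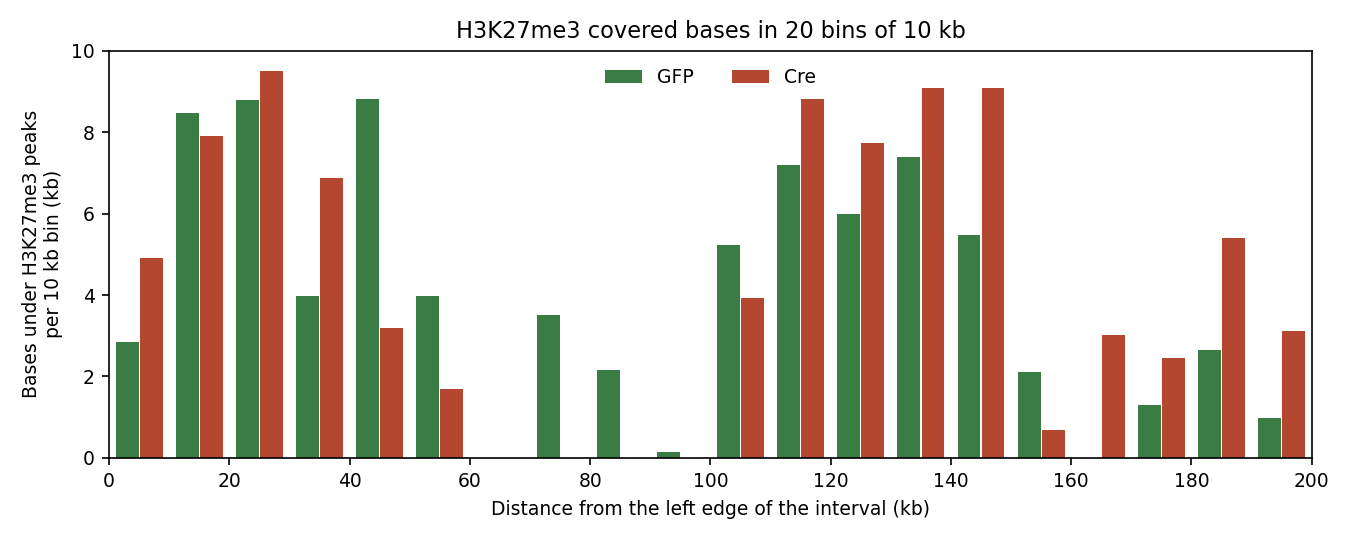
Bases under H3K27me3 peaks in each of 20 bins of 10 kb along the interval (green, GFP; red, Cre), in kb. From 40 to 110 kb every bin with a peak is lower in Cre, and from 110 to 150 kb every bin is higher.

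In bins of 10 kb, 6 of the 19 bins with any H3K27me3 were lower in Cre at least 2-fold, against 27.6% of autosomal bins. Another 3 were higher at least 2-fold, against 16.7%, where bins with none in GFP were counted as higher. These counts too lie near the background. Between 34310001 and 34370000 the GFP and Cre values were 8.82 and 3.19 kb, 3.98 and 1.70 kb, none in either, 3515 bases and none, 2158 bases and none, and 150 bases and none. The first of these bins holds the GFP-only peak at 34314521, which helped to choose the interval. Of the 8 bins with at least 5 kb in GFP cells 1 was lower at least 2-fold, against 5.67% over the autosomes. From 34380001 to 34420000 the 4 bins held 7.20, 5.98, 7.38 and 5.47 kb in GFP and 8.81, 7.74, 9.09 and 9.07 kb in Cre cells. The next bin was lower in Cre, with 2.10 and 0.693 kb, and the last 4 were higher, with none and 3.03 kb, 1.30 and 2.45 kb, 2.64 and 5.40 kb, and 0.971 and 3.12 kb.

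**Figure D4:**
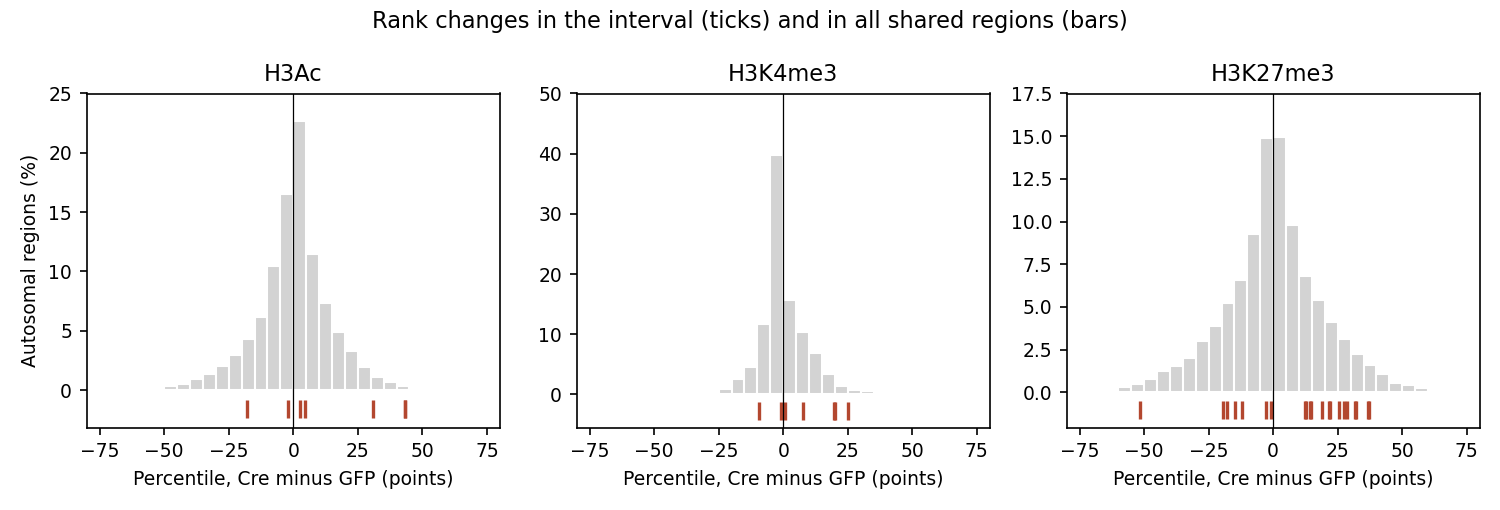
Difference in score percentile, Cre minus GFP, for all autosomal regions with a peak in both lists (grey bars, percent of regions per 5 points) and for the regions of the interval (red ticks). For H3Ac 3 of 7 ticks lie at or above 30.9 points, and for H3K27me3 1 tick lies at -51.7 and 14 of 21 above 0.

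Some active-mark peaks lay on bases that also carried H3K27me3, which in bulk cells does not show both marks on the same chromosome copy. Of the H3K4me3 peaks 6 of 10 in each list overlapped H3K27me3 of the same condition, against 12.3% of autosomal GFP and 12.8% of autosomal Cre peaks. Of the H3Ac peaks 2 of 8 in GFP and 5 of 10 in Cre did so, against 2.33% and 4.00%, and the overlapping bases were 1.35 and 4.06 kb. These autosomal shares do not adjust for the density of H3K27me3 here, which covered 40.5% of the interval in GFP and 43.7% in Cre. It lay over 36.6% and 31.9% of the H3K4me3 bases and 12.9% and 22.7% of the H3Ac bases, each below its share of the interval. The counted overlaps were as short as 3 bases, for a Cre H3Ac peak. The H3K4me3 peak at 34399612 lay under Cre H3K27me3 over all of its 1952 bases; it scored 441 in GFP and 695 in Cre and carried a Cre-only H3Ac peak of 879 bases. With 50% of the peak required, the counts were 3 and 3 for H3K4me3 and 0 and 2 for H3Ac. H3K4me3 overlapped H3Ac in 6 of 10 GFP and 9 of 10 Cre peaks, against 80.5% and 85.3% over the autosomes.

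H3K9me3 was sparse in the interval. The GFP list held 5 peaks with scores of 50.8 to 77.6 over 4.46 kb, and the Cre list none. The whole lists held 10885 and 3985 peaks, and with equal numbers of top-scoring peaks no H3K9me3 peak of either list was left in the interval. A lack of a Cre counterpart, found for 5 of 5, was common for this mark, at 81.1% of autosomal GFP peaks. One of the 5, from 34314385 to 34315273, overlapped the GFP-only H3K27me3 peak by 753 bases. The others, at 34359884, 34363030, 34364894 and 34367922, lay in the stretch without Cre H3K27me3. GFP cells had no H3K27me3 peak there either, as their list held none from 34354679 to 34369850.

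At the edges of the interval, the last H3K4me3 peak before it scored 3100 in both lists and ended 7.3 kb from the edge in GFP, and the first one after it lay 59.0 kb away in GFP, with a score of 138. One GFP H3K27me3 peak, from 34469965 to 34471158, crossed the right edge and was counted.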

How the data were processed

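Of 18 samples, the peak lists of 8 were used, 1 per mark and condition, and the other 10 were not analysed here. Per the submitters' processing notes the build was NCBIM37 and the tools, with no role given, included MACS 1.4.1, bedtools 2.16.2, SAMtools 0.1.18 and BWA. The deposited lists hold positions and a score per peak with no stated unit, with a lowest score of 50 to 50.02. The control library and filters are not given in the sources used here, and read depth is unknown. All 8 libraries are labelled biological replicate 3. The input chromatin library for the histone marks is labelled replicate 3 for Cre cells but replicate 1 for GFP cells. A peak had a counterpart where a peak of the other condition shared 1 base or more with it. Regions with a peak in both lists were ranked by their highest score on the 19 autosomes, and backgrounds come from the same autosomal lists. The interval, its genes, the motifs, the limit of 20 points, the bins and the span of 3 regions were chosen with earlier results of these data known. The rule for named items was to print position and score of every H3K27me3, H3K4me3 and H3K9me3 peak, and of H3Ac peaks that lack a counterpart, overlap the other marks or score highest. The text departs from it: peaks in shared regions are given by region, and some regions or weak peaks only by start, rank or range. A planned assignment of peaks to genes, pathway lists and cell markers was not made without an annotation of the build. One motif is not reported here. The code was tested on simulated data. Python 3.11.15, NumPy 2.4.6, pandas 2.3.3, SciPy 1.17.1 and matplotlib 3.10.9 were used.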

Additional observations from a re-analysis of the deposited data

How the results depend on the processing

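Of 98 alternative values for 26 results, 72 stayed within 1.5 times the reported one with the same direction, 24 moved further and 2 reversed. The cause of these shifts was not tested. Covered bases, Cre minus GFP: shortening the interval by 25 kb on each side reversed H3K27me3 from 6417 to -1338 and H3K4me3 from 2072 to -310. A score of at least 100 gave 15236 for H3K27me3, 3627 for H3Ac and 0 for H3K9me3. Extending the interval by 50 kb gave 3520 for H3K4me3 and 4768 for H3Ac, and equal numbers of top-scoring peaks gave 0 for H3K9me3. Peaks without a counterpart: a score of at least 100 left 4 GFP-only H3K27me3, 1 GFP-only H3Ac, 0 Cre-only H3Ac and 0 GFP-only H3K9me3 peaks. Merging within 1000 bases left 5 GFP-only and 2 Cre-only H3K27me3 peaks. Extending the interval gave 15 Cre-only H3K27me3 peaks, overlap of at least 50% of the peak 5 Cre-only H3Ac peaks, and equal numbers 0 GFP-only H3K9me3 peaks. Active-mark peaks under H3K27me3: with 50% overlap there were 3 for H3K4me3 in either list, 0 for GFP and 2 for Cre H3Ac, and at a score of 100, 3 for Cre H3Ac. Windows of 200 kb higher at least 2-fold in Cre were 7.29% for H3K4me3 and 6.18% for H3Ac, and at least 1.5-fold 13% and 9.62%. Windows with none in GFP were counted as higher. Regions higher by 20 points, in alternatives added after the data were seen: 2 for H3K27me3 with merged peaks and 1 for H3K4me3 with all chromosomes. For H3Ac the count was 3 in each of the 3 alternatives run. The autosomal shares of peaks without a counterpart and of regions higher by 20 points were not recomputed under the alternatives. With 1 library per mark and condition and unknown depth, a weak peak missing from a list cannot be told from one below its threshold.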

Other observations

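The stretches beside the interval differed in H3K27me3 in opposite directions. In the 200 kb before it, peaks covered 40.9 kb in GFP and 32.3 kb in Cre cells, a ratio of 0.79. In the 200 kb after it they covered 47.0 and 64.0 kb, a ratio of 1.36. H3K4me3 covered 32.4 and 37.2 kb before the interval and 0.858 and 1.28 kb after it, so that the active marks thinned out toward higher coordinates in both conditions.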
